A study of Mus musculus with 6 samples.

Results

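The genes described here encode G-protein-coupled receptors and the proteins that carry their signal through cyclic AMP. They were taken by name from the deposited table on Leydig cells, the androgen-producing cells of the testis, in their fetal (FLC) and adult (ALC) form: rows whose symbol belongs to a set of receptor families, or to the G-protein subunits, RGS proteins, adenylyl cyclases, phosphodiesterases, protein kinase A (PKA) subunits or CREB/CREM factors, with Chrm3 and Mc2r left out. This gave 128 of the 10580 listed genes, of which 64 are receptors. RNA was sequenced from testicular cells of male mice that carried an Nr5a1-GFP transgene, with 3 libraries of FLCs collected at E18.5 and 3 libraries of ALCs collected at P100. The fetuses had mothers of the outbred CD-1 stock, and the study's methods do not give the parents of the adult males. Live single cells with strong GFP were taken by cell sorting, so any strongly GFP-positive cell could enter, and FLCs of several sorts were pooled. No treatment or targeted allele separated the groups, which the labels tell apart by age.

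Every row of the table had a multiple-test corrected p below 0.05 in the authors' comparison of the stages, a looser limit than the one by which the study itself named differing genes, and the direction and size of that comparison are not used here. The table gives no values per library, so no difference between FLCs and ALCs was estimated here, and depth per library is unknown. What is described is the level of each gene as the authors' mean of normalized counts over the 6 libraries, both stages together. Because each stage gave 3 of the 6 libraries, the mean of the stage in which a gene is higher lies between this mean and 2 times this mean. Single genes were ranked and their ratios taken after division by the kilobases (kb) of annotated exons, while medians, counts and shares given in normalized counts are not scaled by length and are described as such. The authors' mean carries no replicate error, so the order of genes is a description, and neighbours in that order may not differ.

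In the pathway, a ligand-bound receptor activates a heterotrimeric G protein, whose alpha subunit then acts on an effector. Gs stimulates and Gi inhibits adenylyl cyclases, and the cyclic AMP they make releases the catalytic subunits of PKA from its regulatory subunits, while phosphodiesterases break the messenger down and RGS proteins shorten the active state of the alpha subunit. In adult Leydig cells luteinizing hormone acts through this route to drive androgen synthesis, and PKA acts on CREB-family factors in the nucleus.

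The labelled cell type was checked on marker genes. All 8 Leydig markers were listed, with means from 18581 for Hsd17b3 to 283675 for Cyp17a1 (normalized counts). Of the other lists, 2 of 3 Sertoli markers (Dhh at 89.0 and Amh at 137), the interstitial progenitor marker Tcf21 (216), 1 of 3 germ cell markers (Ddx4 at 184), 1 of 3 endothelial markers (Esam at 102) and 3 immune markers (Cxcl2 at 11.6, Emr1 at 177 and Csf1r at 982) were listed, and none of 3 peritubular myoid markers. All 5 spermatid transcripts were listed, from Acrv1 at 62.9 to Prm2 at 3191. Per kb of exons Acrv1 had 17.2, and the other spermatid transcripts ran from 2301 (Tnp1) to 3570 (Prm2). The highest receptor among the members, Gpr128, had 1230 per kb. Since every row passed the p limit of the stage comparison, a marker that is not listed may still be expressed. The counts of listed markers therefore do not measure purity, and only the levels of listed markers can be read. The part of these other cells in the levels of the members, high or low, was not tested. In bulk RNA fewer cells of a type and less RNA per cell cannot be told apart.

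The pathway genes were, as a group, listed at lower levels than the rest of the table, and most of the low ones were receptors. The members had a median mean of 193 normalized counts, against 679 over all listed genes. Per kb of exons the medians were 36.9 and 147. A mean of at least 1000 was reached by 31 members (24.2%) and by 41.3% of all listed genes. At the other end, neither stage could average above 100 normalized counts in 40 members (31.2%), as against 16.2% of all listed genes. The 64 receptors had a median mean of 65.5, and 29 of them (45.3%) could not average above 100 in either stage. Among the members that are not receptors, the share with that bound was near that of all listed genes. The sum was uneven: Gnas, Prkar2b and Gnb2l1 made up 42.4% of the members' summed normalized counts, and the 10 highest members 64.9%.

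**Figure D1:**
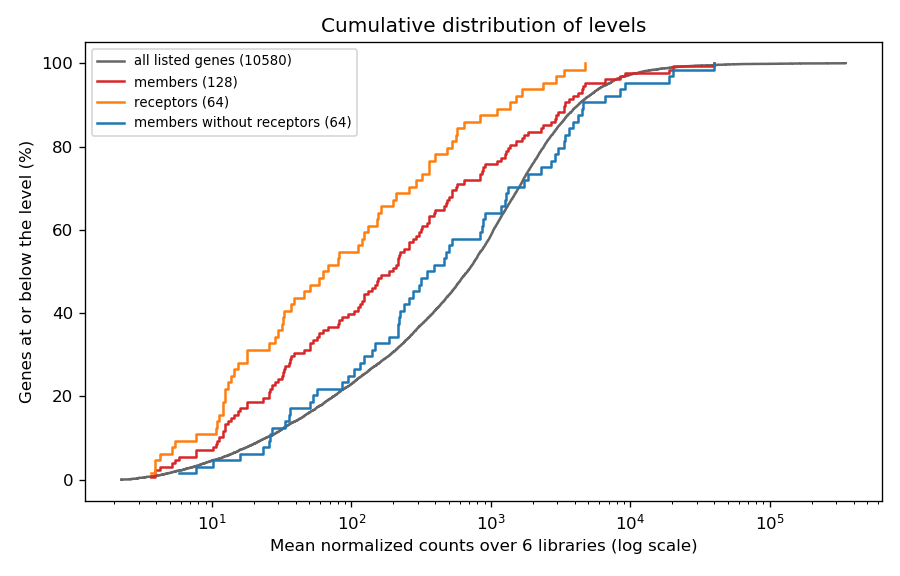
Cumulative percent of genes (vertical axis) at or below each mean of normalized counts over the 6 libraries (horizontal axis, log scale), for all 10580 listed genes, the 128 pathway members, the 64 receptors and the 64 other members. The receptor line lies to the left of the line of all listed genes from about the lowest means up to its highest gene, with a median of 65.5 against 679.

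The roles differed in where their genes lay. Length-scaled levels (normalized counts per kb of exons) had a median of 816 in the G alpha subunits, 213 in the G gamma subunits, 95.3 in the adenylyl cyclases, 97.0 in the CREB/CREM factors, 23.6 in the phosphodiesterases, 15.9 in the receptors and 11.3 in the RGS proteins. Within nearly every role, 1 or a few genes stood far above the others. A share given below is that of a gene in the summed length-scaled level of the listed genes of its role, and paralogs that were not analysed here are missing from that sum.

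**Figure D2:**
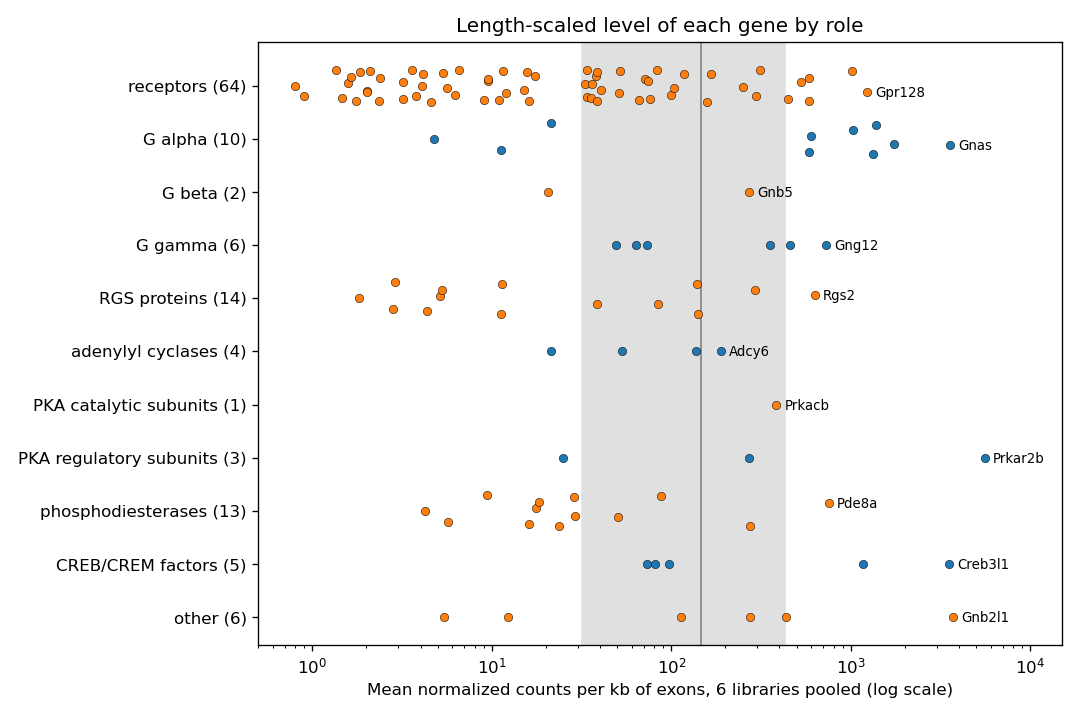
Mean normalized counts per kb of exons over the 6 libraries (horizontal axis, log scale) for each of the 128 genes, in rows by role with the number of genes in parentheses; each point is 1 gene and the highest of each role is named. The grey band spans the quartiles of all listed genes with a length (31.8 to 428) and the grey line their median (147); 7 of the 10 G alpha genes lie to the right of the band and the receptors' median (15.9) lies to its left.

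Receptors came first in the pathway and covered the widest range of levels, from 0.801 per kb for the serotonin receptor Htr4, which couples to Gs, to 1230 per kb for the adhesion receptor Gpr128 (now Adgrg7), a ratio of 1537. Gpr128 had a mean of 3320 normalized counts and held 17.8% of the receptors' sum. It was followed by Gpr108 at 1020 per kb (mean 2918), a membrane protein of intracellular compartments with no established ligand, and by Gpr180 at 587 (mean 1100). Next stood Gpr125 (now Adgra3), another adhesion receptor, at 586 per kb (mean 4753), then S1pr3 at 526 (mean 2349), which binds the lysolipid sphingosine 1-phosphate, and Gpr137, a lysosomal membrane protein, at 446 (mean 1515). Gpr180 and Gpr125 were all but equal after length scaling, although the mean of Gpr125 was the highest of all receptors. Next above Htr4 (mean 3.93) at the low end was Gpr85 at 0.903 per kb (mean 3.69).

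The 9 adhesion receptors, which carry long extracellular domains that bind matrix or neighbouring cells, held 31.2% of the receptors' sum, nearly all of it in Gpr128, Gpr125 and Gpr56 (now Adgrg1, 310 per kb). In the other adhesion receptors the level was at most 10.9 per kb. The 27 remaining genes named Gpr held 40.7%.

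Among receptors for lipid ligands, those for sphingosine 1-phosphate stood out, with 10.8% of the receptors' sum in 3 genes. S1pr3 was 4.48 times as high per kb as S1pr1 (117 per kb, mean 358) and 5.06 times as high as S1pr2 (104 per kb, mean 829). The means in normalized counts put S1pr2 above S1pr1, the reverse of the length-scaled order, since the annotated exons of S1pr2 are the longer. Receptors for lysophosphatidic acid were lower, with Lpar6 at 73.8 per kb, Lpar1 at 36.0, Lpar2 at 34.0 and Lpar4 at 16.0, and held 2.32% of the sum. Among the prostanoid receptors Ptger1, a receptor for prostaglandin E2, had 252 per kb (mean 1375), 20.9 times the level of Ptger4 (mean 80.0), while Ptger2 (2.11 per kb) and the prostaglandin F receptor Ptgfr (2.02 per kb) were near the bottom of the table. The level of Ptger1 is uncertain, since its exons overlap annotation of the opposite strand and whether the authors' counting used strand is not stated.

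Among the amine and nucleoside receptors, the adrenergic, dopamine and adenosine families each had a member well above a close relative. The alpha-1 adrenergic receptor Adra1d stood at 296 per kb (mean 561), 92.9 times its relative Adra1b (3.18 per kb). Of the dopamine receptors, Drd4 had 33.1 per kb and Drd5 3.79. The adenosine receptor Adora1, which couples to Gi, had 99.6 per kb (mean 576), 15.2 times the level of Adora2b (6.55), which couples to Gs, and Adora3 had 1.45. Of 5 annotated muscarinic receptors only 2 were analysed here, and both were low, with Chrm2 at 2.36 per kb and Chrm1 at 2.02.

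Peptide receptors were led by the angiotensin receptor Agtr2 at 159 per kb (mean 527), with the endothelin receptor Ednra at 65.9 (mean 361), the neuropeptide Y receptors Npy1r at 35.8 and Npy2r at 4.58, and the vasopressin receptor Avpr1a at 9.55. Fshr, the receptor for follicle-stimulating hormone, which defines Sertoli cells in the testis, had a mean of 3.89 normalized counts (1.65 per kb), so that neither stage could average above 7.78. The luteinizing hormone receptor Lhcgr was not analysed here.

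Within these ligand families, 6 receptors that are known to raise cyclic AMP through Gs were all low. These members, grouped after their values were known, were Ptger4, Adora2b, Drd5, Ptger2, Fshr and Htr4, and together they held 0.390% of the receptors' summed length-scaled level, with a median of 2.95 per kb. In 5 of the 6, neither stage could average above 100 normalized counts. Outside the name rule, Crhr1, the Gs-coupled receptor for corticotropin-releasing hormone, had 1580 per kb (mean 3887), which was 1.28 times the level of Gpr128, the highest receptor within it.

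**Figure D3:**
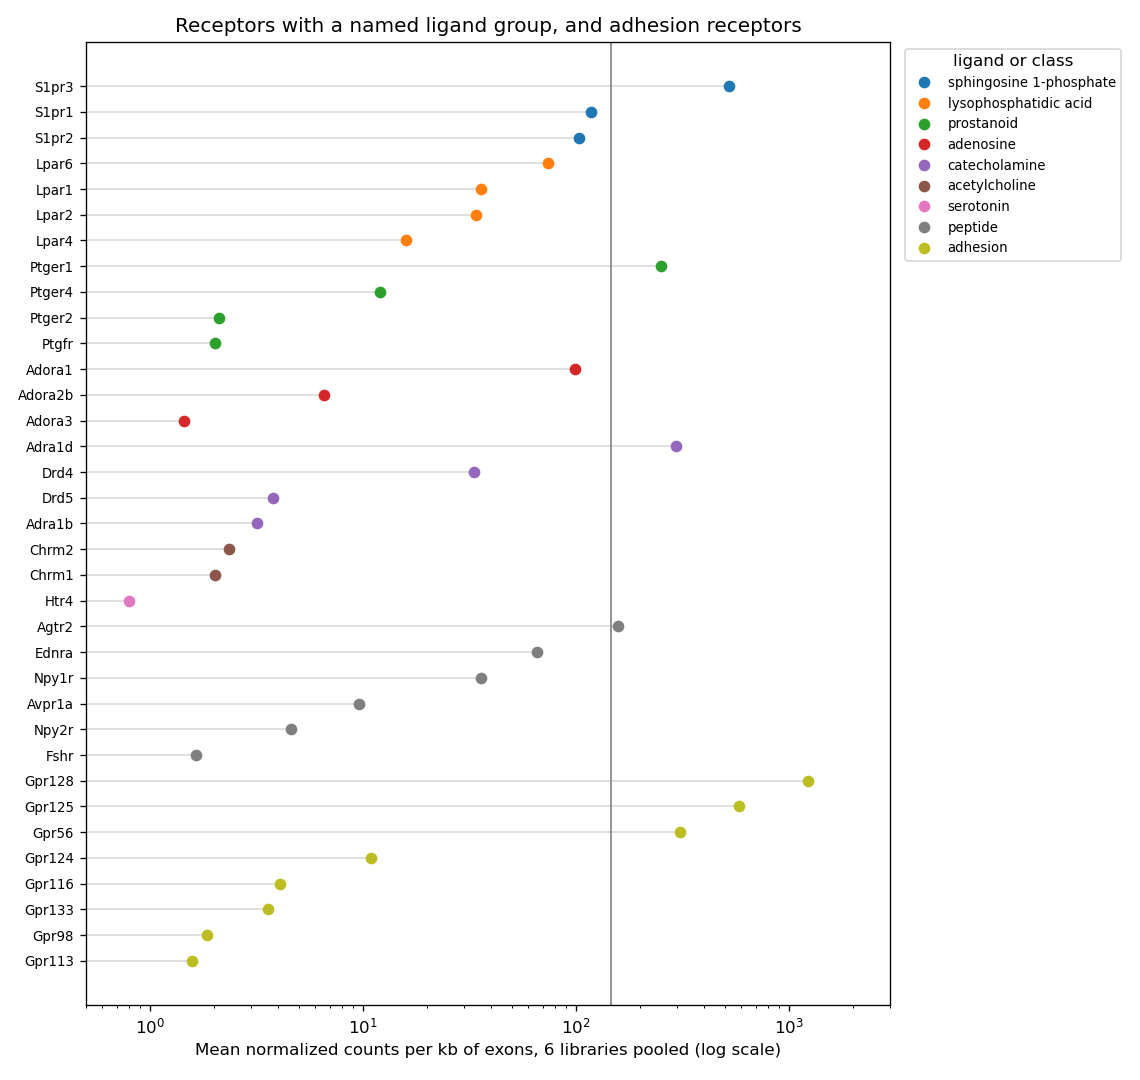
Mean normalized counts per kb of exons over the 6 libraries (horizontal axis, log scale) for 27 receptors with a named ligand group and 8 adhesion receptors, 1 row per gene, coloured by ligand or class; the vertical line is the median of all listed genes (147). S1pr3, Adra1d, Ptger1, Agtr2, Gpr128, Gpr125 and Gpr56 lie to the right of the line and the others to its left.

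Downstream of the receptors, 10 of 16 annotated G alpha genes were listed, and they fell into a high and a low set. Gnas, which encodes Gs alpha and lies at chr2:174284320-174346744 (GRCm38, plus strand), had a mean of 40066 normalized counts, rank 46 of all listed genes, and 3582 per kb. It held 34.8% of the G alpha sum. Gnai2 and Gnai3, which encode inhibitory subunits, had 1746 per kb (mean 6599) and 1381 per kb (mean 4506), so that Gnas was 2.05 times as high as Gnai2. Gna12 and Gna13, whose main effectors are not cyclases, had 1331 and 601 per kb. Gna11 and Gnaq, which activate phospholipase C, had 1031 and 584 per kb. The low set was made of subunits known from specialised cells: the olfactory Gs-like subunit Gnal at 21.4 per kb (mean 239), the cone transducin Gnat2 at 11.2 (mean 33.5) and Gna15, a Gq-family subunit of blood cells, at 4.78 (mean 10.2). Gnas exceeded Gnal, the other subunit that stimulates cyclases, by 168 times per kb.

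The value of Gnas depends on how its complex locus is handled. The union of its exons spans 11186 bases, while its longest transcript has 3947, and per kb of that transcript the level was 10151. Gm20721, a gene annotated on the opposite strand, shares 1469 bases with exons of Gnas, which are 99.0% of its own 1484 exonic bases, and had a mean of 39278, which is 98.0% of that of Gnas. Whether the same reads entered both counts was not tested.

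Pairs of neighbouring genes of this class differed greatly in level. Gna11 lies 4498 bases from Gna15 on chromosome 10 and was 216 times as high per kb, and Gnai3 lies 5847 bases from Gnat2 on chromosome 3 and was 124 times as high. By contrast, Rgs5 and Rgs4, 45663 bases apart on chromosome 1, differed by 2.17 times, and Gpr82 and Gpr34, 20504 bases apart on the X chromosome, by 5.49 times.

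G beta and gamma subunits form the dimer that leaves the alpha subunit on activation. Of 5 G beta genes, Gnb5 (270 per kb, mean 842) and Gnb4 (20.5 per kb, mean 260) were listed, and Gnb5 held 92.9% of their sum. Gnb5 is the G beta protein that pairs with RGS proteins of the R7 family. The listed R7 genes, Rgs6 and Rgs7, were far lower, with 11.4 and 4.33 per kb. Of 12 G gamma genes 6 were listed. Gng12 (724 per kb, mean 3425) and Gng5 (459 per kb, mean 1269) led, followed by Gng10 (352), Gng7 (73.2), Gng3 (63.8) and Gng2 (48.9). Gng10 shares 72.0% of its exonic bases with Gm20503 on the same strand, whose mean of 445 was close to the 463 of Gng10, so its count cannot be told apart from that of the overlapping gene.

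RGS proteins speed the hydrolysis of GTP by the alpha subunit, and 14 of 21 annotated genes were listed. Rgs2, which acts mainly on Gq, was the highest at 630 per kb (mean 2284) and held 46.0% of the sum. Below it stood Rgs10 (291 per kb), Rgs19 (141), Rgs12 (139), Rgs3 (83.8) and Rgs22 (38.4), which is best known from the testis. Rgs19 and Rgs12 were all but equal per kb, although the mean of Rgs12 (1181 normalized counts) was well above that of Rgs19 (314). The lowest were Rgs18 (2.87 per kb), Rgs17 (2.82) and Rgs14 (1.82), and Rgs2 exceeded Rgs14 by 346 times. In 6 of the 14, neither stage could average above 100 normalized counts.

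At the step where cyclic AMP is made, 4 of 10 adenylyl cyclase genes were listed and no member was abundant. Adcy6, a membrane cyclase that calcium inhibits, had 188 per kb (mean 1275) and held 47.0% of the sum. Adcy3, a cyclase of primary cilia and olfactory neurons, had 138 per kb (mean 859). Adcy2, which G beta-gamma dimers stimulate, had 53.1 per kb (mean 224), and Adcy10, the soluble bicarbonate-sensing cyclase of sperm, had 21.4 (mean 187). The range from Adcy6 to Adcy10 was 8.78 times, narrower than the 14.8 times from Gng12 to Gng2.

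Among the listed PKA subunits a single regulatory gene was by far the highest. Prkar2b, which encodes the regulatory subunit RII-beta and lies at chr12:31958476-32061296 (GRCm38, minus strand), had a mean of 20277 normalized counts, rank 105 of all listed genes. Per kb it stood at 5552, the highest of the 128 members, and held 95.0% of the regulatory sum. That top rank depends on the length used. Per kb of the longest transcript Gnas had 10151 and Prkar2b 6003, and without length scaling Gnas was also higher (mean 40066). Prkar2a, for RII-alpha, had 270 per kb (mean 1721) and Prkar1b, for RI-beta, had 25.0 (mean 95.1), so that Prkar2b exceeded them by 20.6 and 222 times. Prkacb, the only listed catalytic subunit, had 384 per kb (mean 3365), and Prkar2b was 14.5 times as high. The steroidogenic gene Star, which imports cholesterol into mitochondria and responds to cyclic AMP, was in turn 3.83 times as high per kb as Prkar2b. Prkaca and Prkar1a, for the other main subunits, were not analysed here.

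Phosphodiesterases, which end the signal, had 13 of 24 annotated genes in the table. Pde8a, a high-affinity enzyme that breaks down cyclic AMP only, led with 751 per kb (mean 3036) and held 57.1% of the sum. Pde5a, which is specific for cyclic GMP, had 274 per kb (mean 2689), so that Pde8a was 2.74 times as high. The calcium- and calmodulin-stimulated Pde1a followed at 87.5 per kb, with the cyclic AMP enzymes Pde7a at 50.3 and Pde4d at 29.1 and the dual-specificity Pde11a at 28.5. Pde8a exceeded Pde4d by 25.8 times. The lowest were Pde4c (9.44 per kb), the rod photoreceptor subunit Pde6a (5.72) and Pde1c (4.25). Only Pde6a could not average above 100 normalized counts in either stage.

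The CREB/CREM factors split by kind, with 5 of 7 genes listed. Creb3l1 (3520 per kb, mean 9162, rank 322) and Creb3l2 (1164 per kb, mean 8474) encode factors anchored in the membrane of the endoplasmic reticulum and freed by cleavage, and together with Creb3l4 (72.9 per kb, mean 122) they are not the classical PKA targets. Creb1, the factor that PKA phosphorylates, had 97.0 per kb (mean 1333), and Crem, its relative with activator and repressor forms, had 80.5 (mean 474). Creb3l1 was 36.3 times as high per kb as Creb1 and 3.02 times as high as Creb3l2, and it held 71.3% of the sum. Without length scaling the means of Creb3l1 and Creb3l2 were close, 1.08 to 1. Per kb of the longest transcript Creb3l1 had 3520 and Creb1 had 159, a smaller gap than per kb of exons.

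**Figure D4:**
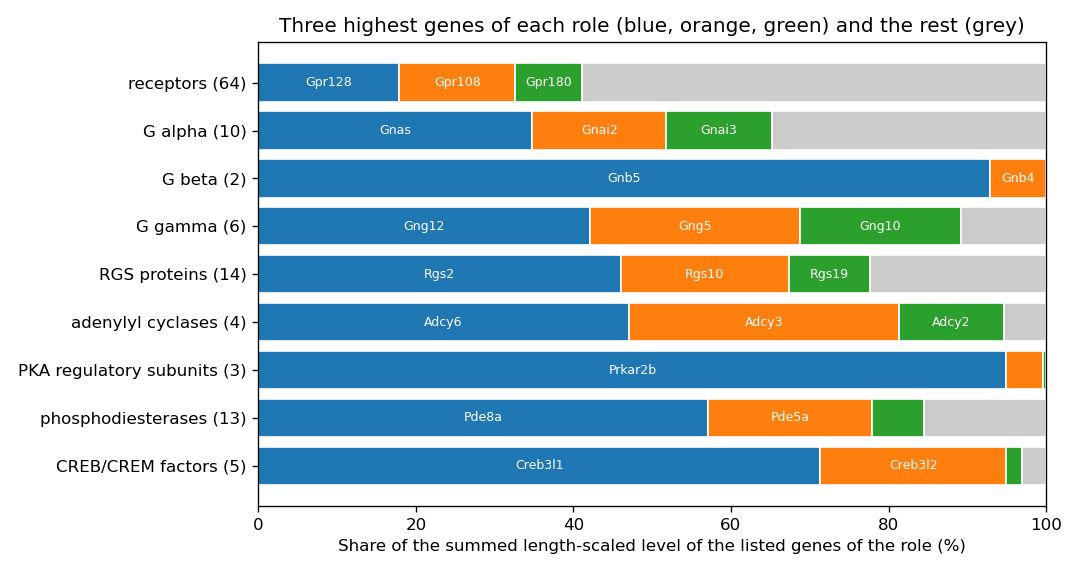
Share (percent, horizontal axis) of the summed length-scaled level of the listed genes of each role that its highest (blue), next (orange) and next after that (green) gene held, with the rest in grey; the number of listed genes is in parentheses. The highest gene held 95.0% in the PKA regulatory subunits and 92.9% in the G beta subunits, and 17.8% in the receptors.

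The name rule also took 6 genes that are no part of the signalling chain itself. Gnb2l1 (now Rack1), a ribosome-bound scaffold protein with a G beta-like fold, had a mean of 19016 (3715 per kb). Ptgfrn, a membrane protein that binds tetraspanins, had 275 per kb, and Agtrap, which binds an angiotensin receptor, had 433. Pde12, an RNA-degrading enzyme of mitochondria, had 114. Htr3a, a serotonin-gated ion channel, and Rgs9bp, an anchor of an RGS protein in photoreceptors, had 12.3 and 5.39.

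Other genes of the pathway lay closer to the table as a whole than the members, receptors included, did. Of 51 genes outside the name rule 39 were listed, and 19 of them (48.7%) had a mean of at least 1000 normalized counts. The share was 24.2% among the members and 41.3% among all listed genes. The lists differ in make-up, since 64 of the 128 members are receptors, of which 12.5% reached that mean. The 39 genes are mostly not receptors, so the lists do not compare like with like. The A-kinase anchoring proteins, which tether PKA to sites in the cell, had 13 of 15 genes listed, from Akap6 at 1.17 per kb to Akap1 at 1370 (mean 6012), an anchor of the outer mitochondrial membrane that binds PKA. Akap4 and Akap3, structural proteins of the sperm tail, had means of 1234 and 515, and they stood beside the spermatid transcripts given above. The CREB coactivators Crtc1, Crtc2 and Crtc3 had 192, 494 and 192 per kb, and the coactivator Crebbp had 240. Of the other cyclic AMP sensors Rapgef4 had 173 per kb and Rapgef3 50.6. Arrb1, a beta-arrestin that ends receptor signalling, had 268 per kb and its relative Arrb2 159.

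Promoter windows from RefSeq (GRCm38.p6, 250 bases before to 50 bases after a transcript start) were found for 97 of the 128 members, and motifs were searched on both strands. The full cyclic AMP response element TGACGTCA was found in 1 of the 97 (1.03%), against 3.12% of the 8174 listed genes with a window and 2.03% of all 27025 genes with one. Its short form TGACG, which lies within the full element, was found in 24 of the 97 (24.7%), against 31.5% and 23.0%. The site TCAAGGTCA, read by NR5A1, the nuclear receptor whose transgene marked the sorted cells, was found in 1 member (1.03%), against 0.318% and 0.466%. Its core CAAGGTCA, a shorter search added after the data had been seen and contained in the longer site, was found in 2 (2.06%), against 1.47% and 1.76%. A match describes letters in the window and is no evidence of binding. The 3 windows with the full cyclic AMP element or the NR5A1 core are shown around the match, which is in capitals, because they are the only members to hold either.

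S1pr2: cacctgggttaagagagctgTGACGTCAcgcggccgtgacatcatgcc
Gpr161: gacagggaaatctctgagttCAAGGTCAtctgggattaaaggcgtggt
Gpr132: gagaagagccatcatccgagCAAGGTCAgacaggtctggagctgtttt

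The stretch of S1pr2 lies at chr9:20976947-20976994 (minus strand) and ends 166 bases before the gene's start in GENCODE. That of Gpr161 lies at chr1:165295664-165295711 (plus strand), 78 bases before the start, and holds the longer NR5A1 site. That of Gpr132 lies at chr12:112861069-112861116 (minus strand), inside the annotated gene. S1pr2 had a length-scaled level of 104 per kb, whereas Gpr161, a receptor of the primary cilium, had 5.61 and the proton-sensing receptor Gpr132 had 4.15, both below the lower quartile of all listed genes (31.8).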

How the data were processed

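RNA was taken from FLCs and ALCs with 3 libraries each, called independent replicates in the labels. Per the study's methods, the authors made stranded libraries from ribosome-depleted total RNA (the results text names poly(A) RNA), read paired ends on a HiSeq, demultiplexed with CASAVA 1.8.2, mapped with GemTools, counted reads per GENCODE gene (GRCm38), dropped genes under 10 reads, and compared stages with DESeq2. Whether counting used strand is not given in the sources used here.

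The deposited value used here is a signal: counts scaled by size factors and averaged by the authors across the 6 libraries. The deposited columns of the authors' own comparison (log2 fold change, standard error, Wald statistic, p-value, adjusted p-value) were neither used nor printed; the adjusted p was read only to test that every row is below 0.05. The planned edgeR fit of counts could not be made, since the table has no values per library; no test was run. Depth, and so counting error, is unknown.

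Symbols were matched to GENCODE vM21 (GRCm38): 10223 by symbol, 299 by an older symbol and 58 not; all 128 members matched, 10 by an older symbol. Means were divided by the union of exons (Python 3.11.15, pandas 2.3.3), and helper functions were tested on simulated data. Members, lists and groupings were chosen with earlier results of these data known. Named were all members of roles with 12 or fewer genes, the 6 highest and 3 lowest of larger roles, and receptors of listed ligand families. The R7 genes, the other adhesion receptors, the neighbouring pairs, the gene overlaps, the grouping by Gs, the compared pairs and the motif-bearing receptors were chosen after their values were seen. Protein identity was planned and not run, for want of protein sequences. A few genes are not reported here.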

Additional observations from a re-analysis of the deposited data

How the results depend on the processing

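Of 42 recomputed values, 38 stayed within 1.5 times the reported one, a limit set here because no replicate spread is known: the number of members, their median levels and the shares held by the highest gene of each role. The 4 that did not were shares. Without length scaling Creb3l1 held 46.8% of the CREB/CREM sum in place of 71.3%, Pde8a 37.8% of the phosphodiesterase sum in place of 57.1%, and Gnas 59.2% of the G alpha sum in place of 34.8%. Per longest transcript Gnas held 55.1%. These settings differ only in the length divided by. Ratios between genes were not among the recomputed values, and they depend on that length too. Without length scaling Gnb5 over Gnb4 was 3.23 in place of 13.2, and Prkar2b over Prkar2a 11.8 in place of 20.6. In the other direction, Gnas over Gnai2 was 6.07 in place of 2.05. The highest gene of a role was the same in 35 of 36 recomputed shares. Without length scaling Gpr125 (17.7%) replaced Gpr128 among the receptors. Some recomputed shares could not move. Leaving out genes with a mean under 10, or with a same-strand overlap, changed nothing in a role that held no such gene. The 38 of 42 and the 35 of 36 include these shares and so overstate how stable the values are.

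No paired analysis was possible because the table holds no values per library. For the same reason the fits without each library, with DESeq2, without a filter on low counts and with the replicate block were not run. The levels join both stages, so a gene used in 1 stage alone and a gene used evenly can have the same value. Exons of 6 members overlap another gene on the same strand and those of 42 members a gene on the opposite strand, over more than 20% of exonic bases in 11 members.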
